A study of Mus musculus with 9 samples.

Results

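The immunoglobulin genes encode the heavy and light chains of antibodies and of the B cell receptor. They were read here in the RNA of macrophages sorted from mouse liver 0, 24 or 48 h from PHx (partial hepatectomy, in which surgery takes out a portion of the liver). The genes were chosen by symbol. Variable genes were the rows named Ighv, Igkv or Iglv, constant genes were Ighm, Ighd, Igha, 4 Ighg genes, Ighe, Igkc and Iglc1 to Iglc3, and Jchain was added to the constant genes. A count of 10 was required in 3 or more of the 9 libraries. Of the 56691 genes in the table, 361 had such a symbol, 235 of these had a count in any library and 130 met the count minimum. These 130 members were 46 of 185 Ighv genes, 70 of 160 Igkv genes, all 3 Iglv genes and 11 of the 13 constant genes including Jchain. They held 98.0% to 99.1% of the immunoglobulin counts of a library. The constant genes below the minimum were Ighe, at 0 in all 9 libraries, and Ighg1, which reached 10 counts only in 48 h replicates 1 and 2 (38 and 12 counts) and had at most 7 elsewhere. At the edge of the minimum, Ighg3, Ighv1-54 and Ighv1-77 had exactly 10 counts in their third-highest library and were kept, and Ighv1-47 and Igkv4-73 had 9 and were not.

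An immunoglobulin chain is encoded by a variable gene and by a constant gene that lies downstream. DNA rearrangement in developing B cells joins the variable gene to a short joining segment, in heavy chains with a diversity segment between them. Each B cell clone thus uses a rearranged variable gene for the heavy chain and another for the light chain. The light chain is of the kappa or the lambda type. The heavy constant gene sets the isotype. Mature naive B cells carry IgM and IgD, and class switching moves the same variable gene to an IgG, IgA or IgE constant gene. Plasma cells make immunoglobulin mRNA in far larger amounts than resting B cells. Macrophages do not rearrange these genes, but bind antibody through Fc receptors.

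The 3 groups were 0 h, 24 h and 48 h after PHx, with 3 libraries each. The study's methods give male C57BL/6 mice of 6 to 8 weeks, and cells sorted as F4/80+ CD11b+ after collagenase digestion of the liver. The labels name no altered gene and no agent for any library. Whether each library holds cells of its own mouse, and of how many mice, is not stated in the labels, so a p-value here reflects how far these libraries scatter, and that scatter may be technical alone. The authors' counts were fitted with edgeR's quasi-likelihood test over 20204 genes, and levels are CPM, which are counts scaled to the TMM-adjusted library total (edgeR's CPM).

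Library totals ranged from 53297943 to 67951168 counts, and the 48 h libraries stood apart. Mitochondrially encoded genes took 7.06% to 17.9% of their counts, against 2.37% to 4.53% at 0 and 24 h. Of the 2 sort markers, Adgre1 (F4/80) was at 128 to 172 CPM at 0 h and at 63.6 to 221 CPM at 48 h, and Itgam (CD11b) fell from 36.4 to 73.9 CPM at 0 h to 10.8 to 20.1 CPM at 48 h (log2 fold change -1.62, edgeR adjusted p = 0.00613). The summed level of 16 macrophage markers was 68433 to 87420 CPM at 0 h, 43564 to 88993 CPM at 24 h and 11979 to 34262 CPM at 48 h. Most of this sum was Lyz2, and the other 15 markers summed to 5782 to 8416 CPM at 0 h and to 11931, 2413 and 4114 CPM at 48 h, where replicate 1 lay above every 0 h library and replicates 2 and 3 below. Of the 16, 4 rose and 5 fell from 0 to 48 h. Markers of some other cell types rose. All 11 markers of liver endothelial cells that were tested rose (summed level 232 to 271 CPM at 0 h and 3786 to 4746 CPM at 48 h), as did 8 of 10 T cell markers (3.84 to 7.90 CPM at 0 h and 67.0 to 133 CPM at 48 h). Of 9 hepatocyte markers 1 rose (1118 to 1828 CPM at 0 h and 831 to 1714 CPM at 48 h). The part of these shifts in the immunoglobulin results was not tested. In bulk RNA, a change in the number of cells of a type and a change of RNA per cell cannot be told apart.

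Variable genes are near copies of each other, which bears on every count of a single gene below. Coding sequences of all 119 variable members were found in the GENCODE M21 annotation of GRCm38, and 100 of them had another immunoglobulin gene at least 90% identical, 65 at least 95% (median 95.4%). The sources used here do not say how the authors' counting treated reads that fit several genes, so that single variable genes are uncertain where copies share long runs. The first pair shown led the kappa chains of 48 h replicate 1. Igkv10-96 and Igkv10-94, on chromosome 6, differ at 16 of 347 coding bases with a longest shared run of 131 bases. The last 290 coding bases follow 5′ to 3′ on the coding strand, with the bases that differ between both genes in capitals.
Igkv10-96: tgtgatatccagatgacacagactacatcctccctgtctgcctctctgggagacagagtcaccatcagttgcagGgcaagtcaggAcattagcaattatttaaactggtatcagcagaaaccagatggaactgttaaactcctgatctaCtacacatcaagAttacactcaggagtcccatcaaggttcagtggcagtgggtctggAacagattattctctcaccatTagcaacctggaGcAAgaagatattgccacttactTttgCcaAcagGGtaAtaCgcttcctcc
Igkv10-94: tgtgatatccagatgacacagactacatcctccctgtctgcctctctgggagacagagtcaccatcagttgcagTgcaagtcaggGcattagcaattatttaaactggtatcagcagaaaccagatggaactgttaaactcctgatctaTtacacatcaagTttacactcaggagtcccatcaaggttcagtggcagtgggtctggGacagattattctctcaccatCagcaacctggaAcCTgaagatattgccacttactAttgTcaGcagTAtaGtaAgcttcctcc
The next genes each held a large part of the variable counts of a single library before 48 h. Ighv1-50 and Igkv2-137 led 0 h replicate 3, and Ighv1-81, Igkv9-120 and Igkv3-2 led 24 h replicate 2. The Ighv genes lie on chromosome 12 and the Igkv genes on chromosome 6. Their last 180 coding bases are shown, with capitals at the bases that differ from the nearest copy, which is Ighv1-69, Igkv2-109, Ighv1-85, Igkv9-124 and Igkv3-1 in this order.
Ighv1-50: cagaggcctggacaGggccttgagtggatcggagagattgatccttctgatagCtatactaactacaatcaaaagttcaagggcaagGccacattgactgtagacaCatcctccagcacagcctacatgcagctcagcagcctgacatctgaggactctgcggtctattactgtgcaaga
Igkv2-137: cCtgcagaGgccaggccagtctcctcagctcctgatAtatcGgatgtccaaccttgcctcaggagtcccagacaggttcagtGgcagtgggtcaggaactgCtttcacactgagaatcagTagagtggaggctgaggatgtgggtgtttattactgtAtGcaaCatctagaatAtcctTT
Ighv1-81: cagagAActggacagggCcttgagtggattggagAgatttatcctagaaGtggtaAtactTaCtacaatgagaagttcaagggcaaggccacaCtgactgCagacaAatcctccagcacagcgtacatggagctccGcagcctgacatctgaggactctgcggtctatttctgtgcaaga
Igkv9-120: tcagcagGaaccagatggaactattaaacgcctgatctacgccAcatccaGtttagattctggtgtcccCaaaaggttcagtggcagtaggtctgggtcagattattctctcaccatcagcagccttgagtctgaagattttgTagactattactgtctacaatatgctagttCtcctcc
Igkv3-2: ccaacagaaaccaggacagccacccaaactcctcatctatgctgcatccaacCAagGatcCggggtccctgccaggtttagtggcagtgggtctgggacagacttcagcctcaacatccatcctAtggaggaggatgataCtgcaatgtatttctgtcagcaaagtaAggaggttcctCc
Ighv1-50 thus differs from its nearest copy at 4 of these 180 bases and at 10 of 351 coding bases in all, and Igkv2-137 at 13 of the 180.

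Immunoglobulin RNA was scarce in the sorted cells at 0 and 24 h and far more abundant at 48 h. Summed over all 361 rows, the level was 71.7, 67.9 and 179.6 CPM in the 3 libraries of 0 h, 89.2, 112 and 146 CPM at 24 h, and 1431, 3366 and 2472 CPM at 48 h. Every 48 h library lay above every earlier library, with 48 h replicate 1 the lowest of the 3, and the 0 and 24 h libraries overlapped. As a share of all counts this was 0.00622% to 0.0176% at 0 h, 0.00765% to 0.0129% at 24 h and 0.188% to 0.353% at 48 h. Igkc ranked between 2520 and 6879 among the genes of a library by count at 0 and 24 h, and at 161, 62 and 93 in the 48 h libraries.

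From 0 to 48 h, 97 of the 130 members rose and 0 fell by edgeR (adjusted p under 0.05). The lower members also numbered 0 at an unadjusted p under 0.05, with DESeq2 and with limma-voom. Over all 20204 genes tested, 9.86% rose and 8.95% fell. The rises comprised 29 of 46 Ighv, 56 of 70 Igkv, 3 of 3 Iglv and 9 of 11 constant genes. The median log2 fold change of the members was 5.55 (5.76 for variable and 5.21 for constant genes), beside -0.04 over all genes, and with the 21 members at 0 in every 0 h library set to the bound that 3 counts allow it was 5.43. Many members met the minimum count only through their 48 h libraries, which favours genes that are high there. Only 39 of the 130 would have met it without the 48 h libraries, and of those 39, which were picked for their level before 48 h, 35 rose and 0 fell (median 5.36). Without 0 h replicate 1 or 2 the 97 rises were 54 or 53, and with limma-voom 61.

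From 24 to 48 h, 90 members rose and 0 fell, while 10.2% of all genes rose and 9.6% fell (0 members lower by DESeq2 and limma-voom, and 0 in edgeR without adjustment). They were 27 Ighv, 52 Igkv, 3 Iglv and 8 constant genes, with a median of 5.32 over the members and 0.05 over all genes. Of the 39 members that would have met the count minimum without the 48 h libraries, 31 rose and 0 fell (median 4.86). Without 24 h replicate 1 the 90 rises were 59.

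Between 0 and 24 h no member passed the test in either direction, where 0.0495% of all genes rose and 0.0297% fell. At an unadjusted p under 0.05, edgeR gave 13 members higher and 9 lower, and 3.89% of all genes higher and 2.72% lower. DESeq2 called 3 higher (Igkv3-2, Ighv5-9-1 and Iglv3) and 3 lower (Ighv3-6, Ighv5-17 and Ighv1-76), beside 1.54% higher and 0.618% lower of the 17309 genes to which it gave an adjusted p. These names were chosen after their values were seen, and limma-voom called 0 in each direction. The 3 genes that DESeq2 called higher had 0 counts in every 0 h library, and the 3 called lower had 0 in every 24 h library. Igkv3-2 took 30.5% of the Igkv counts of 24 h replicate 2, and 2.51% and 0.107% in 24 h replicates 1 and 3. The median over the members was 0 (12 of 119 variable genes and 1 of 11 constant genes were higher at an unadjusted p under 0.05).

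Igkc, the constant gene of kappa light chains, had the highest level per kb of exon of the constant genes at 48 h (920 to 2011 CPM per kb). On the CPM scale it was at 9.94, 12.5 and 32.1 CPM at 0 h, at 14.4, 33.0 and 43.1 CPM at 24 h, and at 489.6, 1070.0 and 679 CPM at 48 h. The 48 h libraries lay apart from all others, and 0 and 24 h overlapped. Its mean was 18.2 ± 12.1 CPM at 0 h and 746 ± 296 CPM at 48 h (SD, n = 3 each), a log2 fold change of 5.36 (SE 0.60, edgeR adjusted p = 0.000161).
The 3 lambda constant genes moved alike. Iglc1 was at 0.656 to 1.73 CPM at 0 h, at 0.895 to 3.06 CPM at 24 h, and at 43.1, 49.9 and 49.0 CPM at 48 h. It had the narrowest spread of the constant genes at 48 h (47.3 ± 3.71 CPM), and its log2 fold change was 5.48 (SE 0.55, edgeR adjusted p = 8.67e-05). Iglc2 rose by 5.21 on the log2 scale to 57.3, 126 and 168 CPM (edgeR adjusted p = 0.000526). Iglc3, whose coding sequence is 95.9% identical to Iglc2, rose by 5.46 to 33.1, 64.3 and 76.9 CPM (edgeR adjusted p = 0.000138). Reads may be divided between these 2 genes, so that each by itself is uncertain. Lambda genes gave 25.5%, 21.2% and 23.4% of light constant counts at 0 h, 28.2%, 11.1% and 24.3% at 24 h, and 21.4%, 18.3% and 30.2% at 48 h. The libraries of all times overlapped in this share. The within-library ratios of Iglc1, Iglc2 and Iglc3 to Igkc did not pass a test over the times (exact permutation test over the 9 libraries, two-sided, adjusted p = 0.979, 0.986 and 0.979 over 13 ratios).

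**Figure D1:**
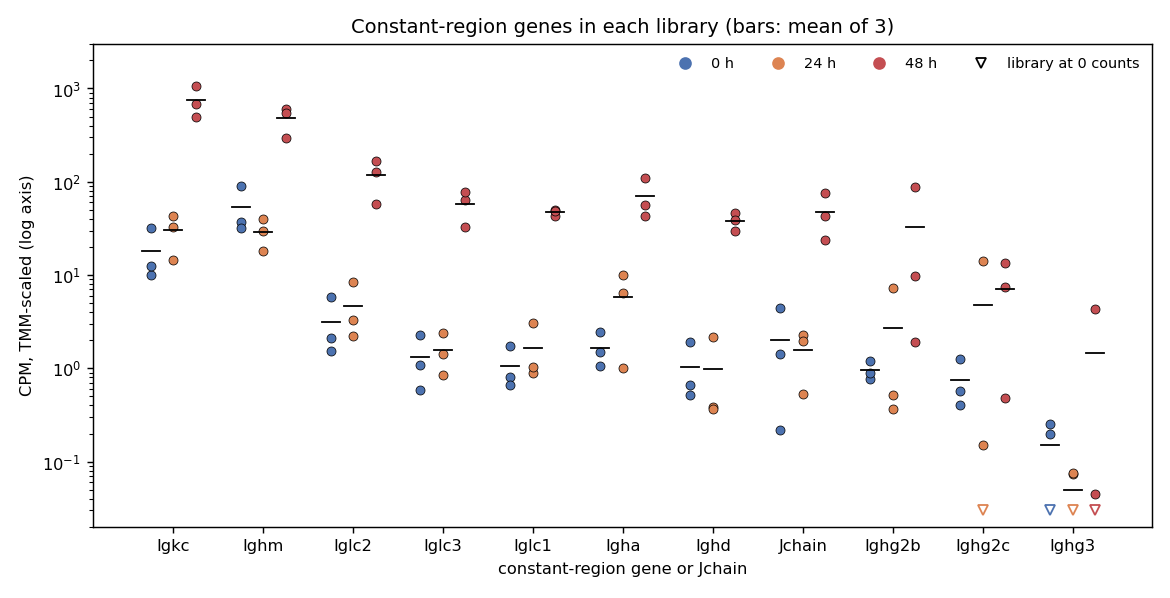
Level of each constant gene and Jchain in each library (points, CPM on a log axis, TMM-scaled) at 0, 24 and 48 h, with bars at the mean of 3 libraries and open triangles for libraries at 0 counts. Igkc at 48 h lies between 489.6 and 1070.0 CPM, and of the constant genes shown Ighg2b, Ighg2c and Ighg3 are those whose 48 h libraries overlap the earlier ones.

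Ighm, the constant gene of IgM, had the highest level per kb of exon of the heavy constant genes in 8 of 9 libraries. The exception was 24 h replicate 2, with 9.50 CPM per kb of Ighm and 10.6 CPM per kb of Ighg2c. In CPM, Ighm was at 37.3, 32.2 and 90.4 CPM at 0 h, at 40.1, 17.9 and 29.6 CPM at 24 h, and at 296, 596 and 541 CPM at 48 h. The 48 h libraries were the highest, and those of 0 and 24 h overlapped. Ighm rose by 3.16 on the log2 scale (SE 0.47, edgeR adjusted p = 0.000957), where the other constant genes that passed rose by 4.56 to 5.48.
Ighd, the constant gene of IgD, was at 0.520, 0.656 and 1.91 CPM at 0 h, at 0.381, 0.370 and 2.17 CPM at 24 h, and at 29.5, 46.5 and 38.8 CPM at 48 h. All 3 libraries of 48 h lay above every earlier library. Its log2 fold change was 5.21 (SE 0.76, edgeR adjusted p = 0.000886). Igha, which encodes the constant region of IgA, the main antibody of mucosal secretions, was at 2.44, 1.49 and 1.07 CPM at 0 h, at 1.01, 6.38 and 10.1 CPM at 24 h, and at 56.7, 110 and 43.2 CPM at 48 h. The 48 h libraries were the highest, and 24 h replicates 2 and 3 lay above all libraries of 0 h. Igha rose by 5.39 (SE 0.77, edgeR adjusted p = 0.000782).

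The IgG genes differed from the other constant genes in their spread. Ighg2b was at 0.765 to 1.20 CPM at 0 h, at 7.27, 0.370 and 0.523 CPM at 24 h, and at 9.72, 87.4 and 1.90 CPM at 48 h. A single library carried most of it at 24 h (replicate 1) and at 48 h (replicate 2), and 48 h replicate 3 lay below 24 h replicate 1. Its rise from 0 h had a log2 fold change of 5.12 (SE 1.48, edgeR adjusted p = 0.0349), and the call was lost without 48 h replicate 2 (2.67, adjusted p = 0.141) or without any 1 of the 0 h libraries (adjusted p = 0.112, 0.124 and 0.110). It was also lost with limma-voom (adjusted p = 0.26).
Ighg2c was at 0.404 to 1.26 CPM at 0 h, at 0, 14.0 and 0.149 CPM at 24 h, and at 7.45, 0.484 and 13.6 CPM at 48 h. It was the only constant gene with its highest library before 48 h, which was 24 h replicate 2, and 48 h replicate 2 lay within the range of 0 h. It did not pass the test (log2 fold change 3.27, SE 1.76, edgeR adjusted p = 0.241). Ighg3 had 287 counts in 48 h replicate 3 and at most 14 in any other library, and did not pass either (log2 fold change 3.26, edgeR adjusted p = 0.331, and -2.55 without 48 h replicate 3). Ighg2b and Ighg2c are 87.7% identical over their coding sequence, and their highest libraries differed.

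Among the heavy constant counts of a library, which were not corrected for gene length here, Ighm took 86.9%, 89.6% and 95.4% at 0 h, 82.0%, 45.8% and 69.5% at 24 h, and 74.1%, 70.9% and 84.2% at 48 h. All libraries of 24 and 48 h lay below those of 0 h, and 24 and 48 h overlapped. Ighd took 1.21% to 2.02% at 0 h, 0.778%, 0.945% and 5.09% at 24 h, and 5.53% to 7.37% at 48 h. Igha took 1.12% to 5.69% at 0 h, 2.06%, 16.3% and 23.7% at 24 h, and 6.71% to 14.2% at 48 h. The IgG genes together took 1.43% to 6.20% at 0 h, 15.1%, 37.0% and 1.76% at 24 h, and 4.41%, 10.48% and 3.08% at 48 h. The single largest IgG shares were Ighg2c with 35.9% in 24 h replicate 2, and Ighg2b with 14.9% in 24 h replicate 1 and 10.4% in 48 h replicate 2.
These shares are compositions, so that a fall of one requires a rise of another, and they were tested as ratios of gene pairs within a library. The ratio of Ighd to Ighm was 0.0145, 0.0209 and 0.0213 at 0 h, 0.00996, 0.0216 and 0.0739 at 24 h, and 0.0995, 0.0780 and 0.0718 at 48 h, 2.14 higher at 48 h than at 0 h on the log2 scale. Libraries of 0 and 48 h did not overlap, but over the 3 times the difference did not pass (exact permutation test, p = 0.0893, adjusted p = 0.387 over 13 ratios). The ratio of Igha to Ighm was 2.08 higher at 48 h and that of Igkc to Ighm 2.22 higher (exact permutation test, adjusted p = 0.613 and 0.387). Light constant counts were 0.311 to 0.443 of the heavy constant counts at 0 h, 0.410, 0.947 and 1.34 at 24 h, and 1.51 to 1.56 at 48 h. With 3 libraries against 3 an exact test cannot go below p = 0.10, so that 0 and 48 h were not tested by themselves, and none of the 13 ratios passed over the 3 times (smallest possible p = 0.00357). Without 24 h replicate 1, the ratios of Ighd and Igha to Ighm passed (exact permutation test, adjusted p = 0.0464 for both).

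**Figure D2:**
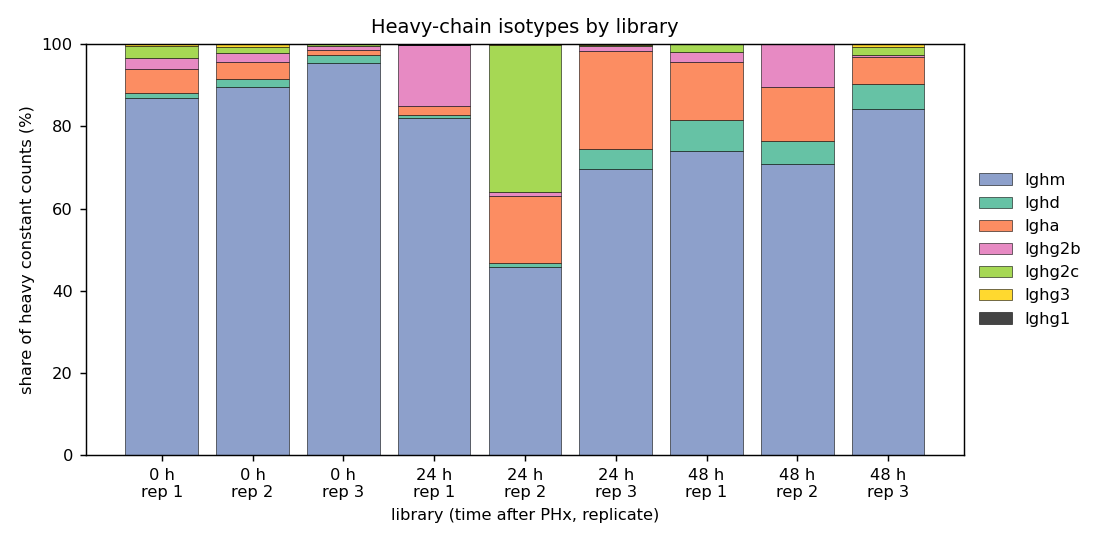
Share of each heavy constant gene in the heavy constant counts of each library (stacked bars, %). Ighm takes 86.9% to 95.4% at 0 h and 70.9% to 84.2% at 48 h, and 24 h replicate 2 stands apart with 45.8% Ighm and 35.9% Ighg2c.

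Jchain encodes the peptide that links IgM and IgA into polymers and is made by antibody-secreting cells. It was at 1.44, 0.219 and 4.39 CPM at 0 h, at 0.533, 2.26 and 1.98 CPM at 24 h, and at 23.6, 76.1 and 43.4 CPM at 48 h. The 48 h libraries lay above all others. Jchain rose by 4.56 on the log2 scale (SE 0.92, edgeR adjusted p = 0.00616). Its ratio to Igkc was 0.147, 0.0189 and 0.137 at 0 h and 0.0482, 0.0712 and 0.0640 at 48 h, with no difference past the test over the times (log2 difference -0.26, exact permutation test, adjusted p = 0.979 over 13 ratios).

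The 3 lambda variable genes all rose from 0 to 48 h. Iglv1 was at 0.147 to 0.580 CPM at 0 h, at 0.222 to 1.64 CPM at 24 h, and at 11.2, 47.7 and 52.0 CPM at 48 h (log2 fold change 6.62, SE 0.87, edgeR adjusted p = 0.000455). Iglv2, 96.9% identical to Iglv1, was at 0.120 to 0.404 CPM at 0 h and at 3.68, 4.61 and 45.7 CPM at 48 h, so that 48 h replicate 3 stood far above the others. It rose by 6.06 (edgeR adjusted p = 0.00441, but 0.158 with limma-voom). Iglv3 had 0 counts in all 3 libraries of 0 h and 1.58, 3.23 and 3.77 CPM at 48 h, at least 152-fold higher than the floor of 3 counts over the 0 h libraries (edgeR adjusted p = 0.00177).

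Among the kappa variable genes, the 5 of highest mean level peaked in different 48 h libraries. Igkv1-110 was at 0.240, 0.838 and 0.349 CPM at 0 h, at 0.209, 0.370 and 5.23 CPM at 24 h, and at 2.73, 92.7 and 12.04 CPM at 48 h. A single library, 48 h replicate 2, held 80.8% of its summed CPM, and 24 h replicate 3 lay above 48 h replicate 1. It rose by 6.22 on the log2 scale (SE 1.56, edgeR adjusted p = 0.0188), a call lost without 48 h replicate 2 (3.99, adjusted p = 0.057) or any 1 of the 0 h libraries (adjusted p = 0.0864, 0.0601 and 0.0732).
Igkv1-117 was steadier, at 0.280 to 1.07 CPM at 0 h and at 8.95, 25.5 and 61.8 CPM at 48 h (5.55, SE 0.78, edgeR adjusted p = 0.000689). Igkv8-30 was at 6.27, 17.6 and 75.5 CPM at 48 h (6.23, edgeR adjusted p = 0.00301). Igkv4-74 was at 0.0447 CPM in 48 h replicate 1, below 2 of the 0 h libraries, and at 64.5 and 39.7 CPM in the other two (7.76, edgeR adjusted p = 0.0128). All 4 of these genes had their highest level in 48 h replicate 2 or 3. The call of Igkv4-74 was lost without 0 h replicate 1 or 2 (adjusted p = 0.0521 and 0.0595) and with limma-voom (0.671). Those of Igkv1-117 and Igkv8-30 held without any 1 library, and limma-voom lost that of Igkv8-30 (adjusted p = 0.101) and of Igkv1-110 (0.251).
Igkv2-137, shown above, was at 0.500, 0.310 and 9.90 CPM at 0 h, at 0 to 0.392 CPM at 24 h, and at 1.85, 70.1 and 4.82 CPM at 48 h. The library of 0 h replicate 3 was higher than 2 of the 3 at 48 h, and the gene did not pass against 0 h (2.84, SE 1.52, edgeR adjusted p = 0.237, and -0.05 without 48 h replicate 2). Igkv4-63, at 10.4 CPM in 24 h replicate 3 and at most 2.91 CPM in every other library, had the highest mean of the variable genes at 24 h and did not pass in any comparison (edgeR adjusted p = 0.0924 at 48 h against 0 h). It passed at 48 h against 0 h under 4 alternatives, without 24 h replicate 2 or 3 (edgeR adjusted p = 0.0452 and 0.0407), in a fit of 0 and 48 h alone (0.031) and with no filter on low counts (0.0446).

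The heavy variable genes together were at 211 to 541 CPM per kb of exon at 48 h and the kappa variable genes at 793 to 2320 CPM per kb. Ighv1-81 was at 0.109 to 0.312 CPM at 0 h, at 0.305, 5.197 and 1.62 CPM at 24 h, and at 0.693, 36.7 and 4.47 CPM at 48 h. It rose by 6.25 on the log2 scale from 0 to 48 h (SE 1.52, edgeR adjusted p = 0.016), although 24 h replicate 2 lay above 2 of the 48 h libraries, and the call was lost without 0 h replicate 1 or 2 (adjusted p = 0.0757 and 0.0751). Ighv9-3 and Ighv1-59 were at 25.3 and 19.8 CPM in 48 h replicate 2 and at 3.57 CPM or less in the other 48 h libraries. Their log2 fold changes were 4.99 and 5.48 (edgeR adjusted p = 0.0171 and 0.0319), and without that library they were 2.85 and 2.01 (adjusted p = 0.0931 and 0.404). Both calls were also lost without 0 h replicate 1 (adjusted p = 0.0679 and 0.123) or 2 (0.0722 and 0.12), and that of Ighv1-59 without 0 h replicate 3 (0.0625) and in a fit of 0 and 48 h alone (0.0595). Ighv1-26 had its highest level in 48 h replicate 3 (14.5 CPM, with 2.77 and 2.17 CPM in the others) and a second peak of 1.54 CPM in 24 h replicate 1, where the other 24 h libraries were at 0 (6.75, edgeR adjusted p = 0.0463). This call was lost without any 1 of the 0 h libraries (adjusted p = 0.0775, 0.147 and 0.136) or without 48 h replicate 1 (0.0509) or 3 (0.14), and with upper-quartile factors (0.0503), DESeq2 (0.0907) and limma-voom (0.111). Ighv1-72 was spread most evenly of these 5, at 2.04, 6.89 and 8.74 CPM at 48 h (5.50, SE 1.19, edgeR adjusted p = 0.00905). With limma-voom none of these 5 heavy variable genes passed (adjusted p = 0.0525 for Ighv1-72 and 0.111 to 0.370 for the others).

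Before 48 h, a few genes gave a large part of the variable counts of some libraries, and genes are named here because they led a library. In 0 h replicate 3, Ighv1-50 gave 277 of 630 Ighv counts (44.0%, 95% Wilson interval 40.1% to 47.9%) and Igkv2-137 gave 539 of 1433 Igkv counts (37.6%, 35.1% to 40.2%). Both 0 h libraries beside it had 0 counts of Ighv1-50, and Igkv2-137 took 5.35% and 3.13% of their Igkv counts. In 24 h replicate 2, Ighv1-81 gave 281 of 500 Ighv counts (56.2%, 51.8% to 60.5%), Igkv9-120 gave 509 of 1264 Igkv counts (40.3%, 37.6% to 43.0%) and Igkv3-2 another 385 (30.5%, 28.0% to 33.1%). This was the library in which Ighg2c took 35.9% of the heavy constant counts. Ighv1-26 led 24 h replicate 1 with 81 of 260 Ighv counts (31.2%, 25.8% to 37.0%), where Ighg2b was at its highest share. Igkv4-63 led 24 h replicate 3 with 557 of 1862 Igkv counts (29.9%, 27.9% to 32.0%). The intervals cover counting error only and are too narrow where a unit of the table is not 1 fragment. Whether a heavy and a light gene that led the same library came from the same cells cannot be told from bulk counts.
At 48 h no gene took such a share. The leading genes were Igkv10-96 in replicate 1 with 18.7% of Igkv counts (4863 of 25941) and Ighv1-19 with 12.5% of Ighv counts, Ighv1-81 in replicate 2 with 18.7% and Igkv1-110 with 10.46%, and Igkv8-30 in replicate 3 with 12.9% and Ighv1-26 with 11.7%. The near copies Igkv10-96 and Igkv10-94 both peaked in replicate 1, at 54.4 and 27.9 CPM, with 11.9 CPM or less in the other 48 h libraries. The effective number of genes, which is the inverse of the chance that 2 counts fall on the same gene, was 4.83 for Ighv and 6.45 for Igkv in 0 h replicate 3 and 2.70 and 3.88 in 24 h replicate 2. In the 48 h libraries it was 13.6 to 25.5 for Ighv and 16.5 to 23.6 for Igkv, and in 0 h replicate 1, with only 198 Ighv counts, it was 26.3 and 24.4. In 24 h replicates 1 and 3 it was 8.07 and 11.9 for Ighv, and 16.3 and 8.10 for Igkv. All 24 h libraries lay below all 48 h libraries for both chains, and the 0 h libraries overlapped both times. No test was run on these values. The totals behind them differ by time (198 to 630 Ighv counts at 0 h, 260 to 500 at 24 h and 6927 to 12589 at 48 h).

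**Figure D3:**
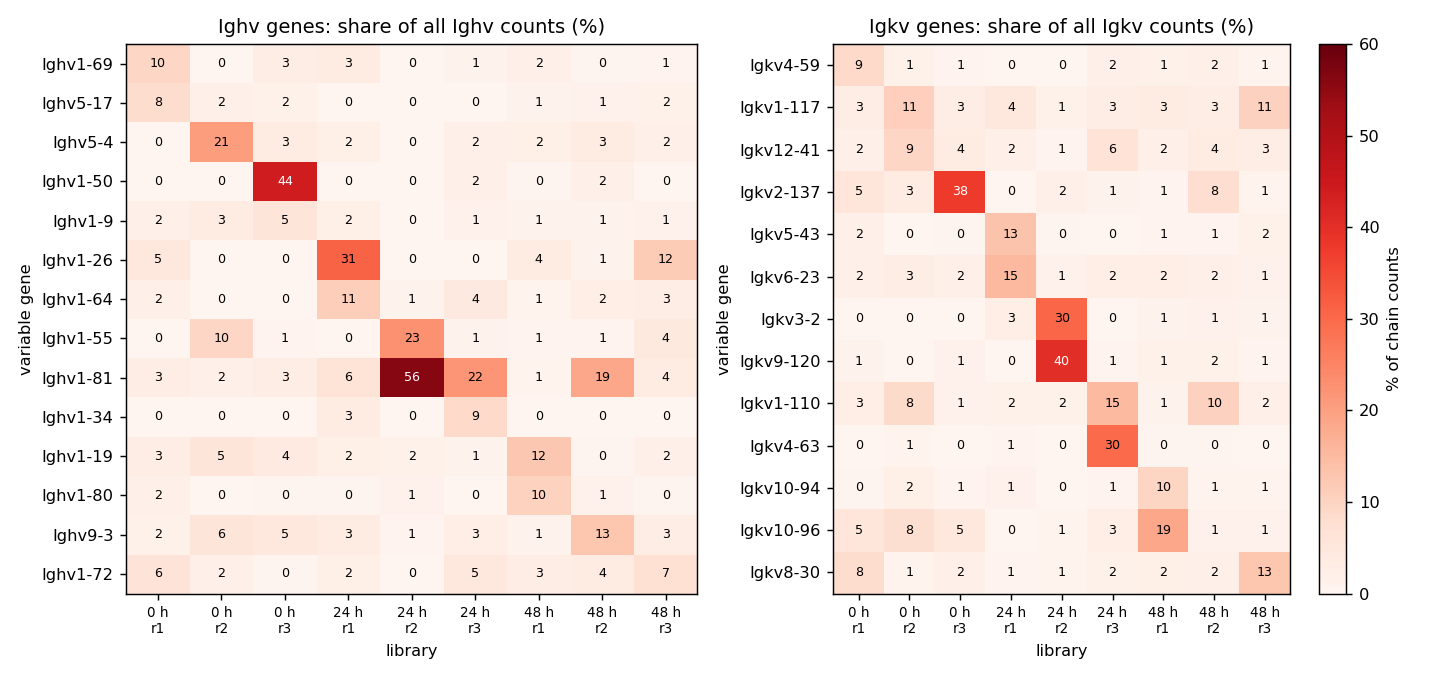
Share of single Ighv genes (left) and Igkv genes (right) in all Ighv or Igkv counts of each library (colour and number, %), for genes that were among the leading genes of a library. Ighv1-50 with 44.0% in 0 h replicate 3 and Ighv1-81 with 56.2% in 24 h replicate 2 are the darkest cells, and no gene passes 18.7% at 48 h.

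Across all 119 variable members, 15 had their highest CPM in 48 h replicate 1, 60 in replicate 2, 42 in replicate 3 and 2 before 48 h (Ighv1-50 and Igkv4-63). Only 29 of the 119 would have met the count minimum without the 48 h libraries, so the minimum itself favours a peak at 48 h. For 74 of the 119 a single library held more than 50% of the CPM summed over all 9, and for 12 more than 75%, of which 9 peaked in 48 h replicate 2. The matching shares over all genes were not computed. The summed immunoglobulin level of 48 h replicates 1, 2 and 3 had the same order as these peaks (1431, 3366 and 2472 CPM). Its part in these numbers was not tested. The members with the most in a single library were Ighv1-59 with 91.7%, Igkv12-44 with 84.8% and Ighv1-54 with 82.9%. The median coefficient of variation over the 3 libraries of 48 h was 73.4% for variable members, 47.7% for constant members and 40.3% over all genes tested. These sets were not matched for level, and the difference between them was not tested. As a description, Spearman correlations of the CPM between 48 h libraries were 0.10, 0.28 and 0.42 over the 46 Ighv members and 0.51, 0.52 and 0.56 over the 70 Igkv members, where points share their library and near copies share reads. Of the variable members, 52 had a nearest copy that was also a member and at least 95% identical. For 20 of these 52 genes the highest 48 h level was in the same library as for that copy. The matching number for genes that are not copies was not computed, so this count by itself says nothing about copies. Genes that are each other's nearest copy were counted separately. By family, Ighv1, the largest heavy family with 27 members, took 43.5% to 71.1% of Ighv counts at 0 h, 66.8% to 90.4% at 24 h and 56.9% to 64.6% at 48 h. Igkv4, the largest kappa family with 18 members, took 11.3% to 28.9%, 7.36% to 36.4% and 15.6% to 23.9% of Igkv counts. Of their members 17 of 27 and 14 of 18 rose from 0 to 48 h.

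Variable and constant genes rose together. Variable genes held 19.5%, 23.4% and 21.4% of the immunoglobulin counts at 0 h, 22.1%, 29.6% and 30.7% at 24 h, and 26.8%, 33.8% and 32.9% at 48 h. All 48 h libraries lay above all 0 h libraries in this share, and 24 h overlapped both. Compared per length, as CPM per kb of exon, the summed Ighv level was 0.492, 0.726 and 0.615 of the heavy constant level at 0 h, 0.556, 1.11 and 0.959 at 24 h, and 1.04, 1.304 and 0.997 at 48 h. The ratio depends on which exons the authors counted. For kappa it was 1.33, 1.13 and 1.07 at 0 h, 1.37, 1.03 and 1.17 at 24 h, and 0.862, 1.15 and 1.24 at 48 h, with all times overlapping. For lambda it was 0.273, 0.285 and 0.0804 at 0 h and 0.163, 0.313 and 0.485 at 48 h, again with overlap. The differences between variable and constant genes over the times were not tested.

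**Figure D4:**
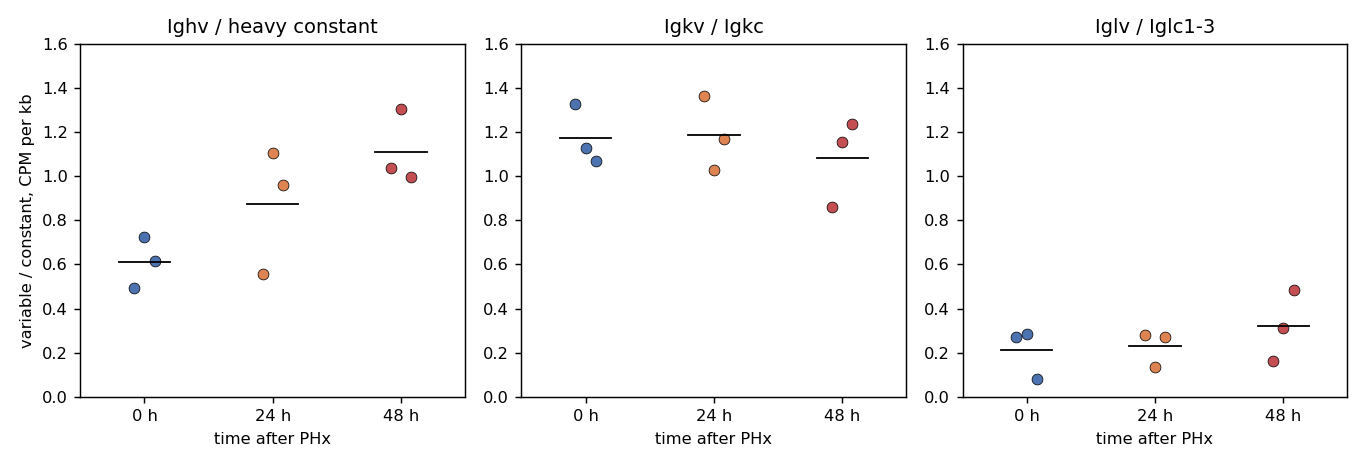
Ratio of variable to constant level (CPM per kb of exon) in each library (points) by time, for heavy, kappa and lambda chains, with bars at the mean of 3. The heavy ratio is 0.492 to 0.726 at 0 h and 0.997 to 1.304 at 48 h, while the kappa and lambda ratios overlap over the times.

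Genes of the B lineage that are not immunoglobulins were read beside these results. Of 20 tested B cell markers, 16 rose from 0 to 48 h and 0 fell (median log2 fold change 4.11), and their summed level went from 43.0 to 88.0 CPM at 0 h and 47.8 to 87.5 CPM at 24 h to 596 to 1160 CPM at 48 h. Cd79a, the signalling partner of the B cell receptor, was at 3.56, 7.61 and 11.98 CPM at 0 h, at 7.997, 5.73 and 16.02 CPM at 24 h, and at 171, 396 and 341 CPM at 48 h (SE 0.58 around 5.29 on the log2 scale, edgeR adjusted p = 0.00014). Ms4a1 (CD20) rose by 4.56 on the log2 scale (edgeR adjusted p = 0.0004). No B cell marker was at 0 in all libraries of a time. The ratio of Ighm to Cd79a counts was 10.4, 4.22 and 7.54 at 0 h, 5.01, 3.12 and 1.84 at 24 h, and 1.74, 1.505 and 1.59 at 48 h. It was lower in every 48 h library than in any 0 h library (log2 difference -2.11), and this did not pass over 13 ratios (exact permutation test, p = 0.0179, adjusted p = 0.232). Without 24 h replicate 1 the adjusted p was 0.0464.
Markers of antibody-secreting cells moved in both directions. Of 15 tested, 3 rose and 5 fell from 0 to 48 h, with a summed level of 753 to 834 CPM at 0 h and 351 to 511 CPM at 48 h. Most of this sum at 0 h was Edem1, Sec11c, Xbp1 and Creld2. Their means were 338, 124, 118 and 67.9 CPM at 0 h and 78.5, 73.0, 49.1 and 47.1 CPM at 48 h. The 3 genes that rose, Mzb1, Slamf7 and Irf4, had means of 0.958, 17.9 and 0.777 CPM at 0 h, so the sum says little about them. Mzb1, a chaperone of antibody assembly, was at 0.400 to 1.95 CPM at 0 h and at 10.7, 43.6 and 21.4 CPM at 48 h (log2 fold change 4.71, edgeR adjusted p = 0.00158). Xbp1 and Prdm1, transcription factors that plasma cells require, fell by 1.27 and 1.59 on the log2 scale (edgeR adjusted p = 0.00185 and 0.00208). At 0 h they were at 101 to 131 CPM and 5.59 to 7.55 CPM, where Jchain was at 0.219 to 4.39 CPM. Which cells the RNA of the falling markers came from was not tested, so these falls are not a measure of plasma cells. Tnfrsf17, the plasma cell receptor BCMA, was at 0, 0.0546 and 0.551 CPM at 0 h, at 0 in all 3 libraries of 24 h, and at 0.0447, 0 and 0 CPM at 48 h. Of 6 B-1 cell markers 0 rose and 2 fell (Plac8 and Cd300lf, together 1436 to 2109 CPM at 0 h and 422 to 488 CPM at 48 h), and the other 4 summed to 12.4 to 20.5 CPM at 0 h and 23.9 to 30.3 CPM at 48 h. Of 7 tested germinal centre and class switching genes, 2 rose (Gcsam and Fas) and 0 fell. Of 4 tested genes of recombination and early B cells 0 passed in either direction. Rag2 had 5 counts in 0 h replicate 3 and 0 in every other library. Rag1 had 4, 8 and 83 counts in the 0 h libraries and 0, 4 and 74 in the 48 h libraries. Among 9 tested receptors of immunoglobulin, Fcgr2b (1.40) and Fcgrt (2.98) rose, and Fcgr1 (-1.86), Fcgr3 (-1.59) and Fcer1g (-2.32) fell. The part of B cells in the immunoglobulin levels was not tested.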

How the data were processed

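RNA of F4/80+ CD11b+ liver macrophages was sequenced in 9 libraries, 3 per time (0, 24 or 48 h from PHx), by strand-marked paired-end sequencing. The authors deposited 1 count per gene and library, all whole numbers, which are treated here as estimated counts because multiples of 4 made up 40.9% to 47.6% of the values from 4 to 40 in each library. Tools named in the submitters' processing notes are CASAVA 1.8, HISAT2 2.0.5 for alignment and featureCounts 1.5.0-p3 for counting. The sources used here name no genome build. Symbols matched 52073 of 56691 gene IDs. Counts were filtered (filterByExpr, minimum count 10), scaled by TMM and fitted by edgeR's quasi-likelihood test (version 4.0.16, R 4.3.3) over all 9 libraries, with time alone in the model, with Benjamini-Hochberg adjustment over 20204 genes and a threshold of 0.05. Ratios of 13 gene pairs within a library (pseudocount 1) were tested by an exact two-sided permutation over 1680 assignments of the libraries to the times. Library totals were 53297943 to 67951168, but a unit of the table need not be 1 fragment, so that Wilson intervals of shares are too narrow.

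Named genes were every constant member and Jchain, the 5 Ighv, 5 Igkv and 3 Iglv genes of highest mean CPM over the 9 libraries, the variable gene of highest mean CPM at each time, and any member called at 24 h or against the main direction at 48 h (0 members). Other genes were named after their values were seen. The members, the 10 marker lists (B cell, plasma cell and antibody secretion, B-1 cell, germinal centre and class switching, recombination and early B cell, receptors of immunoglobulin, macrophage, T cell, liver endothelial cell and hepatocyte) and the pairs were chosen with earlier results of these data known. Sequences and exon lengths came from GENCODE M21 on GRCm38 and identities from edlib 1.3.9. Alternatives were RLE and upper-quartile factors, TMM without immunoglobulin rows, no filter, 10 counts in every library, a log2 fold change of at least 1, DESeq2 1.42.0, limma-voom 3.58.1, a fit of 2 times alone, a block for the replicate number, counts divided by 4, a pseudocount of 4 and each library left out.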

Additional observations from a re-analysis of the deposited data

Results flagged for a closer look

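Rows of joining and diversity segments, which lie outside the variable and constant genes analysed above, carried counts at 48 h above those of the 0 h libraries. Summed over 34 such rows, 48 h replicates 1, 2 and 3 had 31, 125 and 496 counts. The 0 h libraries had 4, 2 and 9 and the 24 h libraries 5, 4 and 1. The 48 h libraries also had 10, 13 and 15 of these rows with a count, against 1 to 4 before. They were counts only, and no test was run on them.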

How the results depend on the processing

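The directions at 48 h held in every alternative for the counts of members. No member was called lower at 48 h against 0 or 24 h under any of them, leave-one-out included. Of 97 rises from 0 to 48 h, 12 of 12 tested members were left when 10 counts were required in every library, since fewer genes were tested, 61 with limma-voom, and 53 to 96 without any 1 library (54 and 53 without 0 h replicates 1 and 2). Of 90 rises from 24 to 48 h, 12 of 12 were left with that filter and 59 to 91 without any 1 library (59 without 24 h replicate 1). The cause of the lower numbers without 1 library was not tested. From 0 to 24 h, no filter on low counts gave 1 higher and 1 lower (Igkv3-2 and Ighv3-6) and DESeq2 3 and 3, with no adjusted p for 18 members, while leaving out any 1 library gave 0. Upper-quartile factors moved the median of all genes at 48 h against 0 h from -0.04 to -0.19 and that of the members from 5.55 to 5.38. Of the 13 ratios, 1 passed with a pseudocount of 4 (Ighg1 to Ighm, a gene with at most 38 counts) and 0 to 3 without any 1 library (3 without 24 h replicate 1). Without any 1 library the log2 fold change from 0 to 48 h was -2.55 to 3.88 for Ighg3 and -0.051 to 5.98 for Igkv2-137, below 0 without 48 h replicate 3 and 48 h replicate 2 in this order. Of 536 alternative values of named genes and ratios, 487 kept their direction and side of the threshold, 40 no longer passed, 7 newly passed and 2 changed sign.

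Same-numbered libraries were not paired by the labels, and over all genes their deviations from the group means correlated between -0.02 and 0.07. With the replicate number as a block, 74 members rose at 48 h against 0 h and 74 against 24 h, and 0 rose or fell at 24 h. Among the named genes the block ended the calls of Ighg2b, Ighv1-59 and Igkv4-74 (adjusted p = 0.115, 0.0961 and 0.0869) and no other.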
